A study of Homo sapiens with 4 samples.

Results

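The 10 genes described here are targets of hypoxia-inducible factor (HIF) that lie outside glycolysis: EGLN1, EGLN3, BNIP3, FAM162A, VEGFA, STC1, P4HA1, NDRG1, ANKRD37 and MIR210HG. They were chosen by symbol from the 36601 features counted, and all 10 were found. The rule itself uses no measured value, but the choice was made with earlier results of these data known. Expression was read in single cells of H9, an embryonic stem cell line of human origin, with a droplet assay that sequences the 3′ ends of transcripts and tags every captured RNA molecule with a unique molecular identifier (UMI), so that each molecule counts once. Wild-type H9 and H9 with a SIRT1 knockout, which the labels call a deletion of Sirtuin 1 without saying which part of the gene was removed, were each sampled at day 0 and at day 6 of a differentiation protocol towards dopaminergic neurons. SIRT1 removes acetyl groups from proteins in a reaction that uses NAD, and the study's question is its role in stem cell metabolism and differentiation. Per the labels, the stem cells grew on Geltrex in mTeSR1 medium under 5% CO2 at 37 °C. The oxygen level, the number of knockout clones and the factors of the differentiation protocol are not given in the sources used here.

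HIF is a transcription factor made of an oxygen-regulated alpha subunit (HIF1A, EPAS1 or HIF3A) and the stable subunit ARNT. With oxygen present, prolyl hydroxylases of the EGLN family mark the alpha subunit, the VHL ubiquitin ligase binds the mark, and the subunit is degraded. When hydroxylation falls, HIF binds DNA at short sites with the core letters ACGTG or GCGTG and raises genes for anaerobic metabolism, mitochondrial turnover, blood vessel growth and collagen modification. EGLN1 and EGLN3 are hydroxylases of HIF and also its targets. Human pluripotent stem cells are known for a strongly glycolytic metabolism.

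The letters searched for, ACGTG on either strand, stood in 6 of the 7 members held by the promoter table, which is RefSeq's on GRCh38.p14 and runs from 250 bases before to 50 bases after the annotated start. NDRG1, VEGFA and STC1 were not among them. The windows below are shown because they hold these letters. Each is written 5′ to 3′ on the strand of its gene, with capitals marking ACGTG or its reverse complement CACGT, which overlap as CACGTG where both strands match.
EGLN1, chr1:231422288-231422315, minus strand: gcggggccgtggtgtACGTGcagagcgc
ANKRD37, chr4:185396664-185396717, plus strand: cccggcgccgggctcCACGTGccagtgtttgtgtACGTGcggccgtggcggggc
BNIP3, chr10:131982037-131982072, minus strand: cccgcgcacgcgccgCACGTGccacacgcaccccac
FAM162A, chr3:122384083-122384117, plus strand: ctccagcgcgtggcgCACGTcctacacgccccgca
P4HA1, chr10:73096933-73096967, minus strand: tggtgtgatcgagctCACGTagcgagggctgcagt
MIR210HG, chr11:568608-568642, minus strand: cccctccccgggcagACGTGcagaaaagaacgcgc

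These letters were in 21.4% of the 35116 promoters of the table, and the related core GCGTG, again on either strand, was in 36.5%. GCGTG was found in 3 of the 7 members (BNIP3 with 4 matches, FAM162A with 3 and MIR210HG with 1), and either core was in 6 of 7 members and in 48.4% of all promoters. ANKRD37 had the most matches of ACGTG, 3 counting both strands. The window of EGLN3 held neither core, which says only that these letters are not in these 300 bases. A match describes the sequence and is not a measured binding site.

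MIR210HG is the host transcript of miR-210, a microRNA that HIF induces. Both mature products lie within it on chromosome 11 and are shown, as RefSeq gives them, with the seed (bases 2 to 8) in capitals.
hsa-miR-210-3p: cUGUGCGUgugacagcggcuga
hsa-miR-210-5p: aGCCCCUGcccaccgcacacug
The 2 products have different seeds. The counts of MIR210HG are polyadenylated host RNA and do not measure the mature microRNA.

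There were 4 libraries, 1 per group, so no difference below was checked on replicates and conditions were not tested against each other. The cells used were 5533 wild-type and 7275 knockout cells at day 0 and 5372 and 4419 at day 6, with medians of 8367 to 13169 UMIs per cell. Between 5 and 18 cell barcodes were shared by any pair of libraries. At day 0, 7 of 8 markers of pluripotency were found in at least 50% of the cells of each library. At day 6 the counts were 4 of 8 (wild type) and 6 of 8 (knockout). These counts carry the depth of the cells, a median of 8590 UMIs in wild type and 13169 in the knockout at day 6. When each library was clustered, 32.3% of wild-type and 21.5% of knockout cells at day 6 were pluripotent-like. The part of this difference in the day 6 ratios was not tested. At day 6 this name came from markers raised against the other cells of the same library, and not from the rule used at day 0. The day 6 shares are therefore relative to each library. SIRT1 stood at 32.3 CPM in wild type against 7.11 CPM in the knockout at day 0, and at 30.2 and 9.95 CPM at day 6, so it was lower in both libraries labelled knockout. CPM are counts per 1000000 UMIs of all cells of a library summed. The median mitochondrial share of UMIs was 5.44% (wild type) and 4.81% (knockout) at day 0, and 2.0% and 1.61% at day 6. Ribosomal protein genes took 24.2%, 24.9%, 32.1% and 28.0% of UMIs in that order, and these shares enter every CPM; their part in the differences was not tested. Knockout cells with at least 3% of their UMIs from chromosome 20 were 28.3% at day 0 and 27.3% at day 6, against 96.3% and 78.1% in wild type.

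The summed level of the 10 genes was 434 CPM in wild type against 882 CPM in the knockout at day 0, and 1150 CPM and 1663 CPM at day 6. It was thus lowest in wild type at day 0 and highest in the knockout at day 6. BNIP3 and FAM162A made up most of it in each library. They stood at 168 and 138 CPM in wild type and at 379 and 273 CPM in the knockout at day 0. At day 6 they stood at 288 and 430 CPM in wild type and at 514 and 490 CPM in the knockout. The sum, and the results below that use it, thus mainly follow both genes. Of the 10 genes, 9 had their lowest level in wild type at day 0 (MIR210HG had its lowest in wild type at day 6), and 8 had their highest in the knockout at day 6. The exceptions were NDRG1, highest in wild type at day 6, and MIR210HG, highest in the knockout at day 0.

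**Figure D1:**
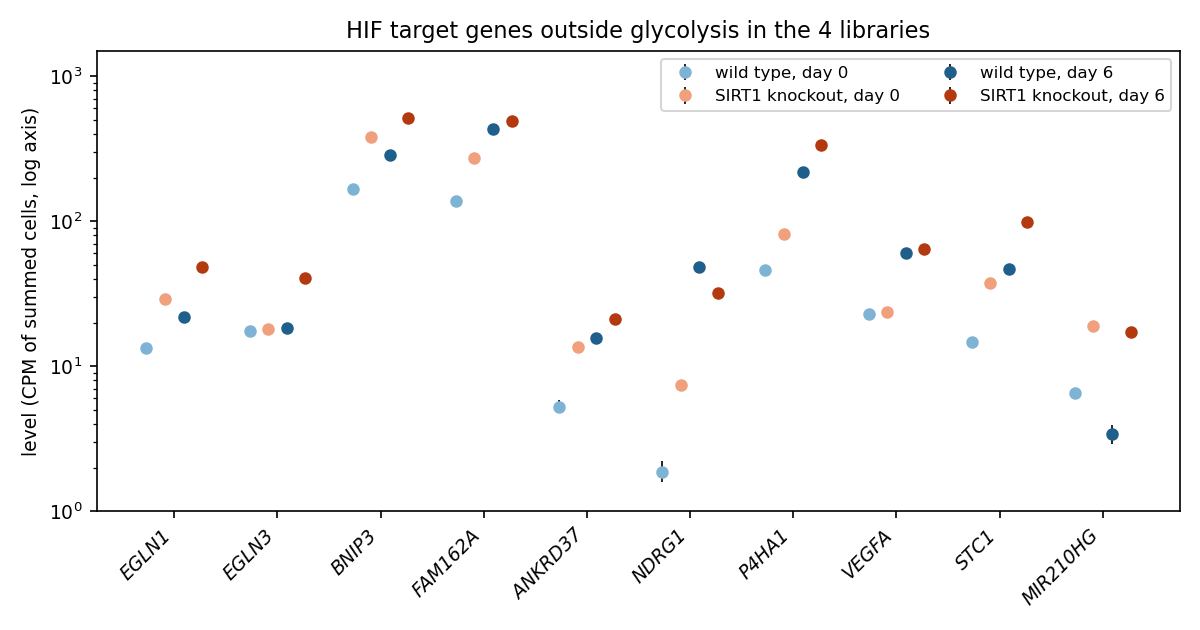
Level of each of the 10 genes in the 4 libraries, in CPM of summed cells on a log axis, with exact 95% counting intervals as bars, most of them shorter than the points. EGLN1, BNIP3, P4HA1, STC1 and MIR210HG were at least 1.5-fold higher in the knockout than in wild type on both days (P4HA1 at day 6 only without TMM or DESeq2 factors), while NDRG1 was higher at day 0 (7.42 against 1.88 CPM) and lower at day 6 (31.9 against 48.4 CPM).

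A gene counted as higher or lower where its CPM differed at least 1.5-fold, the exact conditional binomial (Clopper-Pearson) 95% interval of the ratio left out 1, and at least 1 of the 2 libraries had 10 CPM or more. The range in parentheses after a value is such a 95% interval, which covers counting error only and compares libraries, not conditions. In bulk levels of this kind, more cells with a transcript and more transcript per cell cannot be told apart, so shares of cells follow further on.

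Knockout and wild type were first compared at day 0, with 1 library each. An effect of SIRT1 cannot be told apart there from other differences between these libraries, such as the chromosome 20 share. At day 0, 7 of the 9 members that reached 10 CPM were higher in the knockout and 0 were lower. Over all 9095 genes measured, 1.48% were higher and 2.05% lower by the same rule. The members' median log2 ratio was 1.12, beside -0.01 for all measured genes. EGLN3 and VEGFA passed the level limit and did not pass the fold, and NDRG1 stayed under 10 CPM in both libraries.

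At day 6, 6 of the 10 members were higher in the knockout (EGLN1, EGLN3, BNIP3, P4HA1, STC1 and MIR210HG) and 1 was lower (NDRG1), while 17.4% of 8723 measured genes were higher and 4.36% lower. The median log2 ratio was 0.73 for the members and 0.25 for all measured genes, so the median gene too was higher in the knockout library at day 6. Scaled by TMM or DESeq2 factors, which bring that median to 0.03 and -0.00, 5 members were higher, P4HA1 leaving the count. With those factors the share of called genes that were higher went from 80.0% to 47.3% (TMM) and 43.0% (DESeq2). The share of all measured genes that were higher under them is not given here.

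**Figure D2:**
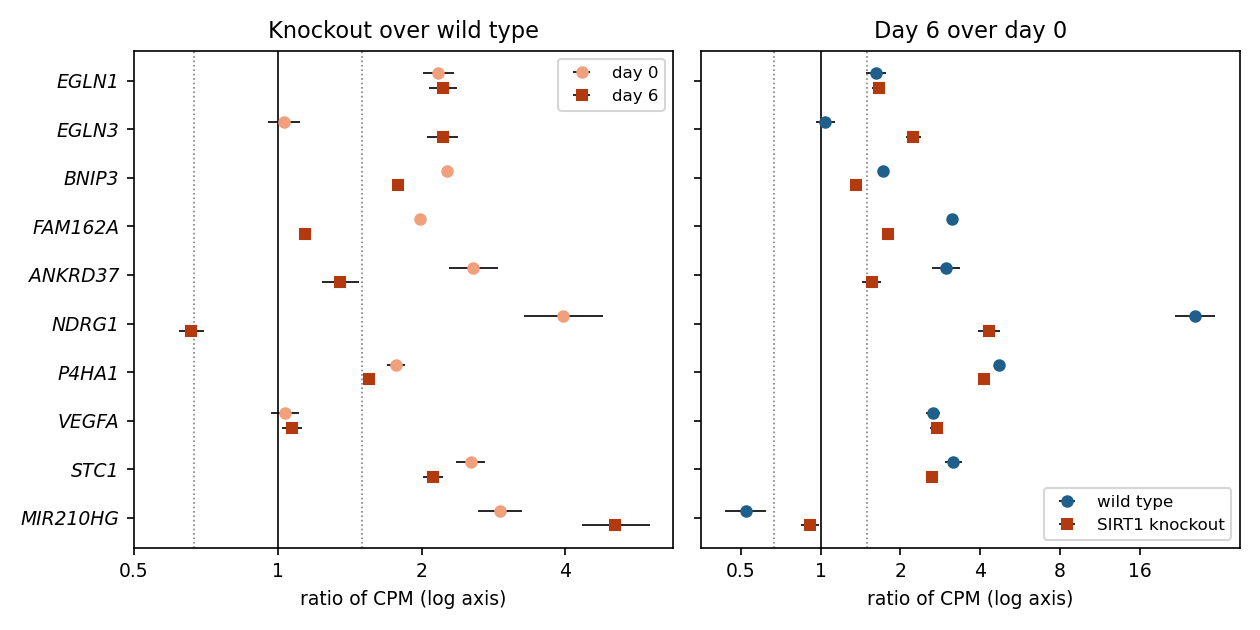
Ratios of CPM for each gene, knockout over wild type on the left and day 6 over day 0 on the right, on log axes with exact 95% counting intervals; dotted lines mark 1.5-fold in each direction. VEGFA sat near 1 on both days on the left (1.04 and 1.07), EGLN3 was near 1 at day 0 only (1.03 against 2.21 at day 6), and NDRG1 lay on opposite sides of 1.

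The HIF hydroxylases differed from each other. EGLN1 (ENSG00000135766), the main oxygen sensor of the pathway, lies on chromosome 1 from 231363751 to 231425044 on the minus strand of GRCh38. Its level was 13.5 CPM in wild type against 29.2 CPM in the knockout at day 0, and 21.8 and 48.2 CPM at day 6. Both knockout libraries were thus above both wild-type libraries. Knockout over wild type was 2.17 (2.01 to 2.34) at day 0 and 2.22 (2.07 to 2.38) at day 6.

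EGLN3 (ENSG00000129521), a hydroxylase that HIF induces strongly in many cells, lies on chromosome 14 from 33924231 to 34462774 on the minus strand. Its level was 17.6 CPM (wild type, day 0), 18.1 CPM (knockout, day 0), 18.3 CPM (wild type, day 6) and 40.6 CPM (knockout, day 6). The counting intervals of the 3 lower libraries overlap, and the knockout at day 6 stood apart. The ratio of knockout to wild type was 1.03 (0.955 to 1.12) at day 0 and 2.21 (2.05 to 2.39) at day 6. The annotated span of EGLN3 overlaps SPTSSA on the same strand and EGLN3-AS1 on the other, and reads where they overlap can be counted for either gene.

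Both mitochondrial members were higher at day 0 in the knockout. BNIP3 (ENSG00000176171, chromosome 10, 131966455 to 131982013, minus strand) encodes an outer-membrane protein that starts mitophagy, the removal of mitochondria. Its level was 168 CPM in wild type against 379 CPM in the knockout at day 0, and 288 and 514 CPM at day 6. The wild type at day 6 lay below the knockout at day 0. The knockout ratio was 2.26 (2.22 to 2.31) at day 0 and 1.78 (1.75 to 1.82) at day 6. With TMM and DESeq2 factors the log2 ratio at day 6 went from 0.83 to 0.62 and 0.59, just above the fold limit.

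FAM162A (ENSG00000114023, chromosome 3, 122384176 to 122412334, plus strand) encodes a mitochondrial protein linked to hypoxic cell death. It stood at 138 CPM in wild type against 273 CPM in the knockout at day 0, and at 430 and 490 CPM at day 6. Unlike BNIP3, it was higher in both day 6 libraries than in both day 0 libraries. Its knockout ratio was 1.98 (1.93 to 2.03) at day 0 and 1.14 (1.12 to 1.16) at day 6, under the fold limit. Its log2 ratio at day 6, 0.19, became -0.03 with TMM and -0.05 with DESeq2 factors, so no direction is given for that day. Processed copies of BNIP3 and EGLN1 exist in the genome and could take or give reads in the counting, so their levels are uncertain to that extent.

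The secreted factors went apart. VEGFA (ENSG00000112715, chromosome 6, 43770184 to 43786487, plus strand), the growth factor that drives blood vessel growth, stood at 22.8 CPM in wild type against 23.7 CPM in the knockout at day 0. Its day 6 levels were 60.5 CPM and 64.8 CPM. The libraries fell in order of day and not of genotype. Knockout over wild type was 1.04 (0.969 to 1.11) at day 0, and 1.07 (1.02 to 1.12) at day 6. With DESeq2 factors the log2 ratio at day 6 changed from 0.10 to -0.14, and with TMM to -0.12. The counting intervals leave out a knockout ratio of 1.5 on either day.

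STC1 (ENSG00000159167, chromosome 8, 23841915 to 23854807, minus strand) encodes stanniocalcin, a secreted glycoprotein that acts on calcium and phosphate. It stood at 14.7 CPM in wild type against 37.3 CPM in the knockout at day 0, and at 46.6 and 98.5 CPM at day 6. Its levels rank like the summed level, with each genotype higher at day 6. Its ratio of knockout to wild type was 2.53 (2.36 to 2.72) at day 0 and 2.11 (2.01 to 2.21) at day 6.

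P4HA1 (ENSG00000122884, chromosome 10, 73007217 to 73096974, minus strand) is a catalytic subunit of the prolyl hydroxylase that stabilises collagen. It stood at 46.1 CPM in wild type against 81.5 CPM in the knockout at day 0, and at 218 and 337 CPM at day 6. The knockout ratio was 1.77 (1.69 to 1.84) at day 0 and 1.55 (1.51 to 1.58) at day 6. The second value lies close to the limit: it was under it with TMM and DESeq2 factors, and also, in an alternative chosen after seeing the data, without a wild-type cluster of 643 cells that is described further on.

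NDRG1 (ENSG00000104419, chromosome 8, 133237171 to 133302022, minus strand) encodes a stress-responsive protein known for its part in cell differentiation and hypoxia. It stood at 1.88 CPM in wild type against 7.42 CPM in the knockout at day 0, and at 48.4 and 31.9 CPM at day 6. The knockout ratio was 3.95 (3.27 to 4.79) at day 0, at levels under 10 CPM in both libraries. At day 6 the knockout was lower, 1.52-fold (1.43 to 1.61). That value is close to the limit, and NDRG1 fell short of 1.5-fold when each cell had equal weight, without the highest 5% of UMI totals, in the knockout cells with a high chromosome 20 share and in a narrow band of mitochondrial share.

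ANKRD37 (ENSG00000186352, chromosome 4, 185396021 to 185400628, plus strand) encodes a small ankyrin-repeat protein known as a direct HIF target. It stood at 5.26 CPM in wild type against 13.5 CPM in the knockout at day 0, and at 15.6 and 21.0 CPM at day 6. The knockout ratio was 2.57 (2.28 to 2.89) at day 0 and 1.35 (1.24 to 1.48) at day 6, the latter under the fold limit.

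MIR210HG (ENSG00000247095, chromosome 11, 565660 to 568457, minus strand) had the largest knockout ratio of the 10 genes at day 6. It stood at 6.52 CPM in wild type against 19.0 CPM in the knockout at day 0, and at 3.40 and 17.3 CPM at day 6. The libraries fell in order of genotype and not of day. Knockout over wild type was 2.91 (2.62 to 3.24) at day 0 and 5.09 (4.34 to 6.00) at day 6. ANKRD37 overlaps UFSP2 on the other strand, FAM162A overlaps WDR5B, P4HA1 overlaps AL731563.2, VEGFA overlaps AL136131.3 and BNIP3 overlaps AL162274.1 and AL162274.2.

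The comparison of days asks how the genes differ between undifferentiated cells and cells 6 days into the protocol. In wild type, 8 of the 9 members that reached 10 CPM were higher at day 6 and 0 were lower, while 11.7% of 9324 measured genes were higher and 37.2% lower. In the knockout, 8 of 10 members were higher at day 6 and 0 were lower, with 13.9% of 9368 measured genes higher and 20.9% lower. Each library enters 2 of the 4 comparisons, so their values stand side by side and are not independent.

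NDRG1 had the largest ratio of day 6 over day 0 in both genotypes, 25.7 (21.7 to 30.8) in wild type and 4.30 (3.91 to 4.73) in the knockout. P4HA1 followed, with 4.72 (4.54 to 4.91) and 4.13 (4.02 to 4.25). In the knockout the intervals of NDRG1 and P4HA1 overlap. With each cell weighted equally, P4HA1 was the higher there, at a log2 ratio of 2.02 against 1.95. VEGFA was at 2.65 (2.50 to 2.81) and 2.74 (2.59 to 2.90). STC1 was at 3.16 in wild type and 2.64 in the knockout, FAM162A at 3.12 and 1.80, ANKRD37 at 2.96 and 1.56, and EGLN1 at 1.62 and 1.65.

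The remaining members split by genotype. BNIP3 was higher at day 6 in wild type at 1.72 (1.68 to 1.76) and was at 1.35 (1.33 to 1.37) in the knockout, under the fold limit. EGLN3 was at 1.04 (0.958 to 1.13) in wild type and at 2.24 (2.09 to 2.39) in the knockout. MIR210HG was at 0.912 (0.842 to 0.987) in the knockout. In wild type it stayed under 10 CPM on both days and was 1.92-fold (1.61 to 2.29) lower at day 6.

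With TMM or DESeq2 factors the share of called genes that were higher at day 6 went from 24.0% to 58.1% and 59.0% in wild type, and from 39.9% to 55.1% and 53.3% in the knockout. At day 0 the same share, for the knockout over wild type, went from 42.1% to 58.1% and 58.0%. The median log2 ratio of all genes moved from -0.35 to 0.10 (TMM) and 0.11 (DESeq2) in the wild-type comparison of days. The same 8 members were higher under each scaling in each comparison of days, and the same 7 at day 0. Shares of all measured genes called under the TMM and DESeq2 scalings are not given here.

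Of 15 genes of the HIF machinery, 13 reached 10 CPM, and 0 of these were higher or lower in the knockout on either day. Of all measured genes, 1.48% were higher and 2.05% lower at day 0, and 17.4% and 4.36% at day 6. With so few genes, a count of 0 at day 0 is near those shares. ARNT2, under the level limit, was at 1.59 CPM in wild type against 3.80 CPM in the knockout at day 6. With TMM or DESeq2 factors, an alternative added for these lists after seeing the data, 1 gene (CITED2) was lower in the knockout at day 6. HIF1A stood at 153 CPM in wild type against 129 CPM in the knockout at day 0, and at 136 and 143 CPM at day 6. VHL, the recognition subunit of the ubiquitin ligase, stood at 21.5 and 23.8 CPM at day 0, and at 20.2 and 26.8 CPM at day 6. HIF activity is set largely by protein stability, which these RNA counts do not measure. Between days, CITED2, which competes with HIF for the coactivators CREBBP and EP300, was 7.80-fold higher at day 6 in wild type and 8.18-fold in the knockout. ELOC, EGLN2 and CUL2 were lower at day 6 in wild type by 1.87-, 1.73- and 1.57-fold, in a comparison in which 37.2% of all measured genes were lower. With TMM or DESeq2 factors 0 machinery genes were lower there and 3 were higher (HIF3A, ARNT and CITED2). For the rescaled counts of this list, the shares of all measured genes are not given here.

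Other known HIF targets outside the 10 form a list of 36 genes. At day 0, 12 of 25 measured genes of the list were higher in the knockout and 0 were lower, beside 1.48% and 2.05% of all measured genes. APLN, which encodes the vascular peptide apelin, was 5.12-fold higher, PPFIA4 3.13-fold, the sterol regulator INSIG2 2.62-fold and the histone demethylase KDM3A 1.89-fold. At day 6, 10 of 31 were higher and 5 lower, beside 17.4% and 4.36% of all measured genes. With TMM or DESeq2 factors 2 were higher (INSIG2 and PPFIA4) and 5 lower. The share of all measured genes called with those factors is not given here. Among those lower in the knockout were the peptide hormone gene EDN1 by 10.3-fold, NDUFA4L2, a mitochondrial protein gene, by 3.45-fold and APLN by 2.53-fold.

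Of 21 glycolytic HIF targets, 8 were higher in the knockout at day 0 and 4 at day 6, with 0 lower on either day. The 8 genes at day 0 stand beside 1.48% of all measured genes, and the 4 genes at day 6 beside 17.4%. With TMM factors 3 were higher and 2 lower (SLC2A3 and LDHA) at day 6. With DESeq2 factors the counts were 2 and the same 2, PGK1 then leaving the count. Shares of all measured genes under these factors are not given here. At day 0 the lactate transporter SLC16A3 was 3.53-fold and the regulator PFKFB4 2.99-fold higher. PGK1 was higher in the knockout on both days, at 1.85 and 1.75, and so was PFKFB4, at 2.99 and 2.08. Between days, 25 of 31 other targets and 17 of 21 glycolytic targets were higher at day 6 in wild type, with 2 and 1 lower. Of all measured genes, 11.7% were higher and 37.2% lower there. In the knockout the counts were 20 of 30 and 11 of 21 higher, with 4 and 0 lower, beside 13.9% and 20.9% of all measured genes.

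To take depth out of the comparison of cells, each cell was thinned at random to 4000 UMIs and the share with a UMI of each gene was counted. At day 0, 44.2% (42.8 to 45.5) of wild-type cells had a BNIP3 UMI against 67.0% (65.9 to 68.0) of knockout cells. At day 6 the shares were 60.0% (58.6 to 61.3) against 79.7% (78.4 to 80.8). The unthinned shares were 77.0%, 84.5%, 79.4% and 96.0%. BNIP3 UMIs were thus spread over many cells of each library, with a larger share in the knockout on both days.

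At the low end, NDRG1 was in 0.976% (0.734 to 1.27) of thinned wild-type cells against 3.20% (2.81 to 3.63) in the knockout at day 0, and in 16.03% against 10.9% at day 6. MIR210HG was in 2.69%, 7.59%, 1.34% and 6.52% of cells, in the order wild type and knockout at day 0, then wild type and knockout at day 6. VEGFA was in 7.93% and 9.20% at day 0 and in 19.4% and 21.5% at day 6. The order of these shares is that of the levels for all 3 genes. Without thinning, NDRG1 was in 2.11%, 6.39%, 29.7% and 27.6% of cells, MIR210HG in 8.04%, 16.1%, 3.07% and 20.2%, and VEGFA in 25.1%, 19.8%, 36.7% and 48.8%, values that carry the depth of the libraries. EGLN3 was in 6.56%, 7.13%, 6.70% and 14.7% of thinned cells (20.2%, 16.2%, 14.6% and 38.0% unthinned) and STC1 in 6.09%, 13.9%, 16.1% and 29.5% (15.8%, 27.1%, 30.1% and 60.5% unthinned). For EGLN3 the knockout at day 6 again stood apart from the other libraries. The profile of free RNA, from barcodes with 1 to 50 UMIs, would at 10% of a cell's UMIs give smaller shares for every gene in every library, the largest 17.2% for FAM162A in the knockout at day 6, where 81.2% of cells had a UMI.

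**Figure D3:**
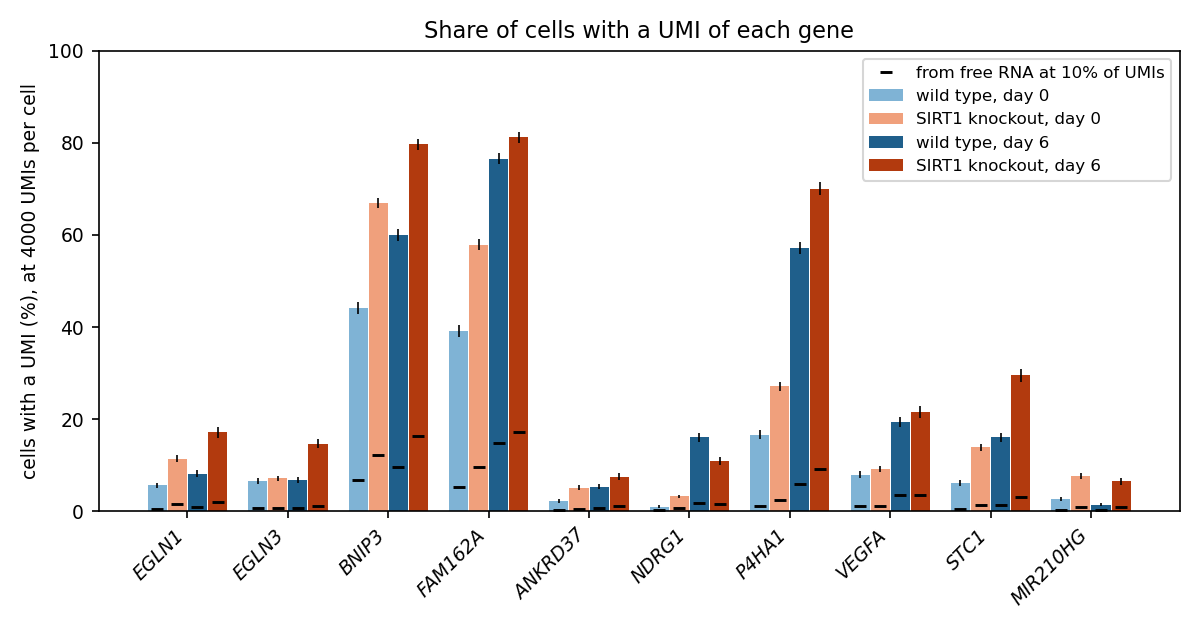
Share of cells with at least 1 UMI of each gene (in %), all cells thinned to 4000 UMIs, with exact binomial 95% intervals; the black ticks mark the share that free RNA at 10% of UMIs would give. Every bar stands above its tick, from 0.976% for NDRG1 in wild type at day 0 to 81.2% for FAM162A in the knockout at day 6.

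Summed over the 10 genes, a thinned cell held a mean of 1.83 UMIs in wild type and 3.72 in the knockout at day 0, and 4.61 and 6.62 at day 6. Cells with none of the 10 were 24.96%, 11.9%, 4.00% and 1.22% of cells in that order. The 10% of cells with the highest sums held 35.8% of these UMIs in wild type and 28.6% in the knockout at day 0, and 22.7% and 20.2% at day 6. This share was largest in wild type at day 0, where levels were lowest, but a low mean raises it by counting alone. The variance of the sum over its mean, which is 1 for counts that differ by sampling alone, was 2.38 and 2.78 at day 0 and 1.82 in both libraries at day 6.

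Within each library, each gene was compared between cells at or above the upper quartile and cells at or below the lower quartile of the sum of the other 9. The sums are small whole numbers with many ties, so the groups held more cells than a split without ties would and differed between libraries: the high group held 27.2% to 44.9% of cells in wild type at day 0 and 25.2% to 34.1% in the knockout at day 6. The ratios of different libraries are therefore not set against each other. At day 0 the counting interval of the ratio lay above 1 for 9 genes in wild type and 10 in the knockout. At day 6 it did so for 10 and 9. The share of all genes that would pass this rule was not computed, and the interval takes the UMIs of a library as independent. The median ratio was 2.40 in wild type and 3.35 in the knockout at day 0, and 1.90 and 1.81 at day 6. NDRG1 had the largest ratio at day 0, 16.1 in the knockout (163 UMIs in high cells against 12 in low) and 5.13 in wild type (46 against 5). ANKRD37 was at 7.51 in the knockout at day 0 and STC1 at 4.68. VEGFA was at the other end at day 0, with 1.22 (0.973 to 1.55) in wild type and 1.30 (1.07 to 1.57) in the knockout. Within the knockout at day 6 the lowest ratio was that of MIR210HG, 1.13 (0.827 to 1.55), from 83 UMIs in high and 84 in low cells.

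The genes of the HIF machinery with 50 or more UMIs in these cells had median ratios between 0.992 and 1.02 in the 4 libraries. Other HIF targets had medians of 1.41 and 2.27 at day 0, wild type first, and 1.61 and 1.58 at day 6. Among the knockout cells of day 0, those high for the sum of all 10 (25.6% of cells) had a median mitochondrial share of 2.95% and those low for it (30.02% of cells) 5.74%. In wild type at day 0, where ties made the high and low groups 44.98% and 55.0% of cells and so the whole library, these shares were 5.26% and 5.57%. At day 6 they were 1.80% and 2.20% in wild type and 1.34% and 2.05% in the knockout. With only cells of 4 to 6% mitochondrial UMIs in both day 0 libraries, an alternative chosen after seeing the data, 6 of 8 measured members were higher and 0 lower, ANKRD37 then falling under the level limit.

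**Figure D4:**
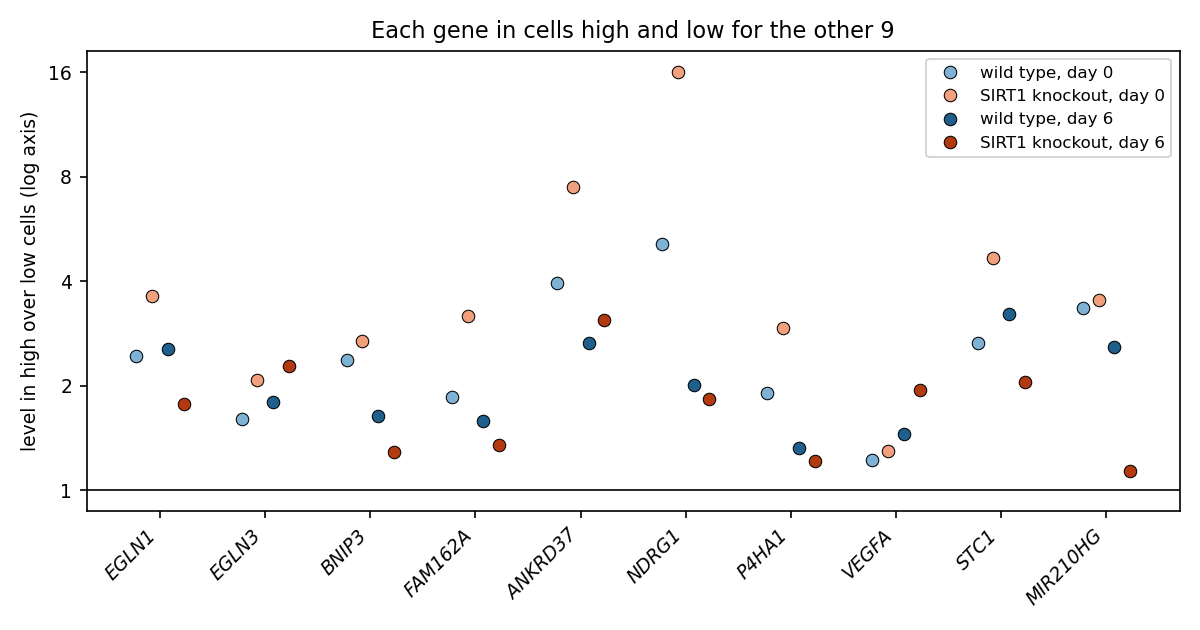
Ratio of each gene's level in cells at or above the upper quartile to that in cells at or below the lower quartile of the summed count of the other 9 genes (log axis), cells thinned to 4000 UMIs; ties make the groups unlike in size between libraries. Within the knockout at day 6 the lowest point is MIR210HG (1.13), and within the knockout at day 0 NDRG1 (16.1) and ANKRD37 (7.51) are highest.

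Between single genes the correlations across thinned cells were weak: the median Pearson r over the 45 pairs was 0.04 to 0.05 in each library. BNIP3 and FAM162A had the highest r in all 4, at 0.20 (5533 cells), 0.37 (7275), 0.18 (5372) and 0.17 (4419). Among 4799 genes outside the 10 at 20 CPM or more in all 4 libraries, those most like the sum of the 10 by the lowest r of the 4 libraries were PGK1 (0.26), LDHA (0.22), GAPDH (0.20), DDIT4 (0.19), SLC2A1 (0.19) and TPI1 (0.18). Each of these 6 is in the glycolytic or other HIF target list, and 19 genes in all reached 0.1. Cells of a library share its free RNA and preparation, and the fixed total ties abundant genes together, so these values are descriptive.

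Each library was also clustered by itself without the 10 genes and the listed HIF genes. In wild type at day 0, the summed level was 355 to 920 CPM in 8 of the 9 clusters and 2454 CPM in cluster 9. This cluster held 59 cells, 1.07% of the library, with a median of 9207 UMIs and 2.20% mitochondrial UMIs. It was pluripotent-like by its markers, and its leading genes were NDUFA4L2, BHLHE41, ANKRD37, APLN and INSIG2, all but BHLHE41 among the members or listed HIF targets.

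In cluster 9, NDRG1 was at 42.6 CPM (26 UMIs) against 1.54 CPM in the other cells of the library, ANKRD37 at 91.8 CPM (56 UMIs) against 4.53, and EGLN1 at 128 CPM (78 UMIs) against 12.5. BNIP3 was at 890 CPM against 162, FAM162A at 808 against 132, P4HA1 at 277 against 44.2 and STC1 at 110 against 13.9. VEGFA was at 49.2 CPM (30 UMIs) against 22.6, and EGLN3 at 26.2 CPM (16 UMIs, 15.0 to 42.6) against 17.5. EGLN3 and VEGFA, the members under the fold limit at day 0, thus had the lowest ratios of the 10 here, 1.499 and 2.17.

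In the knockout at day 0 no cluster stood as far apart: the 6 clusters ranged from 800 to 1400 CPM. The highest was cluster 5, with 176 cells, 3.003% mitochondrial UMIs and metallothionein genes in the lead. For a comparison of the pluripotent-like clusters, the wild-type cluster 9 was left out after its levels were seen. Over the remaining ones, 8 of the 10 genes were higher in each of the 4 knockout clusters than in any of the 5 wild-type ones. The exceptions were EGLN3 and VEGFA. BNIP3 ran from 127 to 237 CPM in the wild-type and from 333 to 590 CPM in the knockout clusters, and NDRG1 from 0.769 to 2.12 and from 6.37 to 13.5 CPM. With cluster 9 kept, none of the 10 genes would be apart, as each was higher there than in the lowest of these knockout clusters. The share of all genes that are apart in this way was not computed, and clusters of a library are not replicates. Without clusters 9 and 5, again an alternative chosen after seeing the data, the same 7 genes were higher in the knockout at day 0.

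At day 6, clusters of 50 or more cells ranged from 780 to 1308 CPM in wild type and from 1488 to 1867 CPM in the knockout. The lowest, wild-type cluster 5, held 643 cells led by CRYAB, ANXA1 and GREM1. STC1 was 2.42-fold, EGLN1 2.23-fold and BNIP3 2.03-fold lower there than in the other cells, while VEGFA was at 71.5 CPM against 58.8. EGLN1, EGLN3, STC1 and MIR210HG were higher in each of the 7 knockout clusters than in any of the 5 wild-type ones. The share of all genes apart like this was not computed. By whole libraries, 17.4% of measured genes were higher in the knockout at day 6. NDRG1 overlapped, at 36.0 to 60.2 CPM in wild type and 18.7 to 51.0 CPM in the knockout.

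**Figure D5:**
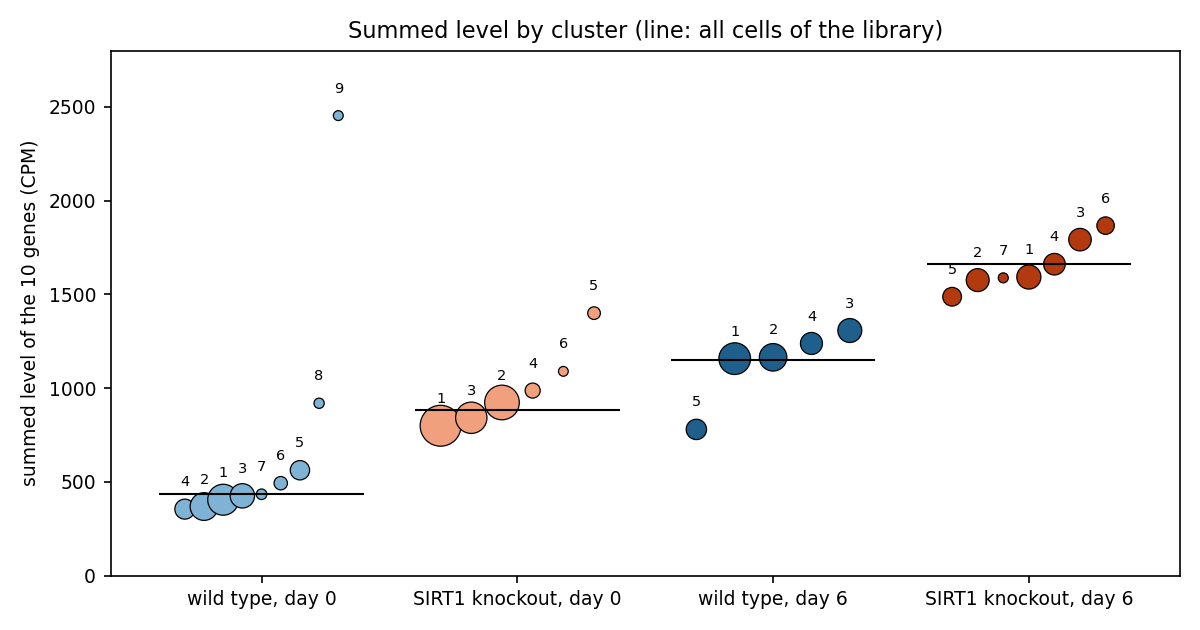
Summed level of the 10 genes (CPM) in each cluster of 50 or more cells, by library; the area of a point grows with the number of cells, the number above it is the cluster's name and the line is the level of the whole library. Cluster 9 of wild type at day 0 (59 cells, 2454 CPM) lies above every other cluster, and the knockout clusters of each day lie above the wild-type clusters of that day except clusters 8 and 9 at day 0.

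The chromosome 20 share divides the knockout cells. Knockout cells with a share of 3% or more, where most wild-type cells lie, had a summed level of 795 CPM at day 0. Those of 2.6 to 3% had 862 CPM and those under 2.6% had 936 CPM. At day 6 the values were 1622, 1707 and 1674 CPM in that order. Wild-type cells, in the same order, were at 425, 791 (168 cells) and 515 CPM (36 cells) at day 0. At day 6 the wild-type values were 1112, 1312 and 1230 CPM. In knockout cells of 3% or more and under 2.6%, EGLN1 was at 23.4 and 32.5 CPM at day 0, and STC1 at 32.3 and 42.9. With only the knockout cells of 3% or more, set against all wild-type cells, the same 7 members were higher in the knockout at day 0. The median log2 ratio was 0.88 in place of 1.12. At day 6 the same 6 members were higher.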

How the data were processed

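The authors deposited raw UMI counts per gene and barcode for each of the 4 libraries, with every barcode kept. The submitters' processing notes name Cell Ranger 6.1.2 and GRCh38, and the file headers Cell Ranger 4. The annotation version used for counting is not stated in these sources, and positions came from GENCODE 29 by Ensembl identifier.

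Cells had at least 4000 UMIs and 1000 genes and at most 20% mitochondrial UMIs. Doublets were kept. Depth in cells was 73424397 (wild type) and 73451883 UMIs (knockout) at day 0, and 51424092 and 65336710 at day 6. Counts were summed per library and scaled to CPM. Ratios have exact 95% intervals, and log2 ratios a prior count of 0.5. The comparison was tested on simulated data. Levels of different genes were compared only for their part in the summed level.

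Members, lists and alternatives were chosen with earlier results of these data known. Named genes were the 10 members, SIRT1, up to 4 genes per list and comparison with the largest log2 ratio past 1.5-fold, and the 6 genes most like the members' sum. Some results that meet this rule are not reported here. HIF1A, VHL and the cluster-leading genes were named after their values were seen.

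Clusters used 2000 variable genes, 30 components, 15 neighbours and Leiden resolution 0.5 (leidenalg 0.10.2). Names came from listed markers. A library-wide pluripotent-like name asked for 7 of 8 markers, and was withheld where a marker of another list led the cluster, both set after values were seen. Python 3.11.15, scipy 1.17.1, edgeR 4.0.16 (TMM factors) and DESeq2 1.42.0 (size factors) were used. Alternatives changed the UMI limit (2000, 8000), scaling, cell weights, free RNA (10% subtracted), the highest 5% of UMI totals, the level limit and the cells used.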

Additional observations from a re-analysis of the deposited data

Results flagged for a closer look

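NDRG1 lay on opposite sides of 1 on the 2 days: the knockout ratio was 3.95 at day 0 and 0.660 at day 6, a difference of -2.58 on the log2 scale (day 6 minus day 0). With 1 library per group this difference was not tested. The day 0 levels were 1.88 CPM (138 UMIs) in wild type and 7.42 CPM (545 UMIs) in the knockout, and the day 6 levels 48.4 CPM (2488 UMIs) and 31.9 CPM (2085 UMIs).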

How the results depend on the processing

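The counts of higher members were within 1.5 times of the reported ones under every alternative run for the 4 comparisons. NDRG1, the 1 member lower in the knockout at day 6, left the count, which was then 0, with each cell weighted equally, without the highest 5% of UMI totals, with knockout cells of a chromosome 20 share of 3% or more and, in an alternative chosen after seeing the data, with cells of 1 to 3% mitochondrial UMIs; its log2 ratio was between -0.84 and -0.48 over 11 alternatives. With no minimum level, 1 member (MIR210HG) was lower at day 6 in wild type, where the reported count was 0, since it then counted as measured. No called ratio changed sign. EGLN3, under the fold limit at day 0, ran from -0.13 to 0.12 (log2, knockout over wild type). Of the single ratios and medians recomputed, 136 moved beyond their counting interval and 304 did not. The alternative that keeps knockout cells by chromosome 20 share has no value for the comparison of days in wild type, which holds no knockout cells. No paired analysis was possible because each group has 1 library. Depth limits NDRG1 and MIR210HG most, with 138 and 175 UMIs in their lowest library.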
